A study of Mus musculus with 12 samples.

Results

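The genes that build iron-sulfur clusters in the mitochondrion were examined in whole kidney RNA of 12 mice. The 9 members are Nfs1, Lyrm4, Iscu, Hscb, Glrx5, Bola3, Isca1, Isca2 and Slc25a28, taken as the rows of the deposited expression table that carry these gene names, 9 of 22053 rows. All 9 were found and all 9 passed the filter on low values, so no member is missing from the counts. C57BL/6 mice of 4 per group were studied from 8 to 16 weeks of age. Control mice ate a diet without adenine and were injected i.p. with PBS every week. CKD mice ate the same diet with 0.2% adenine for 8 weeks, which injures the tubules and leads to chronic kidney disease (CKD) with fibrosis, and had the same PBS injections. CKD+Fe mice ate the adenine diet and were injected i.p. each week with iron dextran at 0.5 g/kg in place of PBS. Each mouse gave 1 library of polyadenylated RNA, and values are FPKM, which divide the fragments of a gene by its transcript length and by the mapped reads of the library, which allows levels to be compared between genes per length, whereas comparisons between mice depend on how the libraries are scaled.

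Iron-sulfur clusters are small cofactors of iron and sulfide that many enzymes need, among them complexes of the respiratory chain, mitochondrial aconitase and several DNA polymerases and helicases. In the mitochondrial matrix the cysteine desulfurase NFS1, held in its active form by LYRM4, releases sulfur from cysteine, and the sulfur is joined with iron on the scaffold protein ISCU. The co-chaperone HSCB, working with the heat shock protein HSPA9, moves the finished cluster from the scaffold to the carrier glutaredoxin GLRX5, and ISCA1, ISCA2 and BOLA3 take part in making and placing the larger clusters. SLC25A28, also called mitoferrin 2, brings iron across the inner mitochondrial membrane. The kidney proximal tubule is known for its dense mitochondria and its reliance on respiration.

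The promoters of 4 of these genes are shown. In the deposited values 2 of the genes, Nfs1 and Glrx5, fell in CKD and 2, Isca1 and Slc25a28, did not pass the test. This division depends on the scale, since Isca1 and Slc25a28 were also called lower after the median-of-ratios rescaling described below. Each run holds 250 bases before and 50 bases after an annotated start, from RefSeq on build GRCm38.p6, written 5′ to 3′ along the gene. The Nfs1 window is chr2:156144137-156144436 (minus strand), the Glrx5 window chr12:105032368-105032667 (plus strand), the Isca1 window chr13:59769740-59770039 (minus strand) and the Slc25a28 window chr19:43674832-43675131 (minus strand). Capitals mark matches to CCAAT (the CCAAT box), CCGGAAG (the core bound by ETS factors such as GABP) and the NRF1 motif (GCGC and TGCGC with any base between them, bound by a regulator of mitochondrial genes), each searched on both strands, so that ATTGG and CTTCCGG are the same motifs read on the opposite strand.
Nfs1: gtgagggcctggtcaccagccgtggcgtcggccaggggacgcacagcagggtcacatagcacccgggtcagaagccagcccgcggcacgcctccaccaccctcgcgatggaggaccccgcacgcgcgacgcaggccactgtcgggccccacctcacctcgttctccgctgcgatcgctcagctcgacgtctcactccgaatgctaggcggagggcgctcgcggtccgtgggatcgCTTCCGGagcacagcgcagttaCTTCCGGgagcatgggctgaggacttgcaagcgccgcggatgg
Glrx5: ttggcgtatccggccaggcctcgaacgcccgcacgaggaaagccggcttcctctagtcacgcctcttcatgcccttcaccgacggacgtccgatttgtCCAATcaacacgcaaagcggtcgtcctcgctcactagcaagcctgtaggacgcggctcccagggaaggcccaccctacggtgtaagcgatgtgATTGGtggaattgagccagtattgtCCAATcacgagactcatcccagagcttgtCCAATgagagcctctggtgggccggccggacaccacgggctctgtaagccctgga
Isca1: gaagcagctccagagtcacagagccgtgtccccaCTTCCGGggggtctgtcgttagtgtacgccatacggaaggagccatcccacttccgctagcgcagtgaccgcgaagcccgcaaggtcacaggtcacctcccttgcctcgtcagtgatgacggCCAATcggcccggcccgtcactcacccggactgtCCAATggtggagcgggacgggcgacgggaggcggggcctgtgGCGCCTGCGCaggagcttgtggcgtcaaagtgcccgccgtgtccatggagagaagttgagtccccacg
Slc25a28: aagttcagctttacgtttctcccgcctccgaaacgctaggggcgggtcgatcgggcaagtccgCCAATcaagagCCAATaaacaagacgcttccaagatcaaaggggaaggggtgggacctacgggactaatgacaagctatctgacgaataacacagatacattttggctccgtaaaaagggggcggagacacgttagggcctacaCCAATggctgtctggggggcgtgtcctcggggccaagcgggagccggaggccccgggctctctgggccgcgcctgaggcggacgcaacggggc

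RefSeq windows were matched for 7 of the 9 genes, Nfs1, Lyrm4, Glrx5, Bola3, Isca1, Isca2 and Slc25a28, and not for Iscu and Hscb. Bola3 has 3 windows, which makes 9 in all, and 2 of the 3 overlap and hold the same 2 CCAAT sites. Motifs were therefore counted by gene, over all windows of a gene. A CCAAT box was present for 5 of the 7 genes (6 of the 9 windows), as compared with 41.1% of 27025 mouse genes (37.4% of 32851 windows of the same length). The ETS core was present for 3 of 7 genes (Nfs1, Isca1 and Isca2) as compared with 9.93%, and the NRF1 motif for 1 of 7 (Isca1) as compared with 5.19%. The motif TNAAGGTCA of the estrogen-related receptors was found for 0 of 7 genes and for 1.43% of all. Both Isca1 and Slc25a28 carried CCAAT boxes, as did Glrx5, whereas the Nfs1 window held none. In the deposited values a CCAAT box was thus found both among genes that fell and among genes that were not called. The ETS core and the NRF1 motif both hold CpG (C followed by G), and the shares over all genes were not matched for GC content. Over all promoters the median was 52.7% GC and 7 CpG. The Nfs1, Isca1 and Isca2 windows had 69.7%, 65.7% and 63.0% GC and 35, 27 and 22 CpG. These matches are descriptions of the letters in the windows.

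The libraries differed in ways that bear on the values. The depth in reads is unknown. Summed FPKM were 607951 to 707843 in control mice, 503438 to 603556 in CKD mice and 536139 to 572074 in CKD+Fe mice. The 14 proximal tubule markers alone summed to 73300 to 97130 FPKM in control mice but to 2504 to 9700 in CKD mice and 3478 to 13660 in CKD+Fe mice. The median log2 fold change of all 13148 tested genes was 0.50 in CKD against control on the deposited scale and 0.01 after median-of-ratios rescaling, which sets each library by the median ratio of its genes. Member calls are therefore given on both scales. In each group 1 mouse stood apart, with 595 genes at least 2-fold from the rest of the group in control mouse 3, 805 in CKD mouse 3 and 442 in CKD+Fe mouse 1, and the counts of members and of listed genes are also given without these 3 mice.

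Most of the assembly genes fell in CKD. Of the 9 members, 6 were lower in CKD than in control mice (limma, Benjamini-Hochberg adjusted p below 0.05) and 0 were higher, where 13.3% of all tested genes were lower and 54.6% were higher. On the deposited scale the falls were largest for the sulfur-releasing and scaffold genes, with log2 fold changes of -1.28 for Nfs1, -1.10 for Iscu and -1.06 for Lyrm4. Next came -0.98 for Bola3, -0.71 for Glrx5 and -0.46 for Isca2. Differences between members were not tested, and after quantile normalization Bola3 at -0.88 fell more than Iscu at -0.80. The remaining 3, Hscb, Isca1 and Slc25a28, had values of -0.20, -0.15 and -0.07 and did not pass the test. The median over the 9 genes was -0.71, as compared with 0.50 over all genes. After rescaling all 9 were called lower, with values from -1.85 to -0.63 and a median of -1.28 against 0.01, where 29.3% of all genes were lower and 28.8% higher. After quantile normalization 7 were called lower, the same 6 and Hscb, where 25.6% of all genes were lower and 23.3% higher. Without the 3 mice that stood apart 7 were called lower, the same 6 and Isca1, where 15.7% of all genes were lower and 59.4% higher. The CKD and control groups were fully separated, with CKD lower, for 5 members, as they were for 10.5% of all tested genes. In whole tissue fewer cells of a type and less RNA per cell cannot be told apart.

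**Figure D1:**
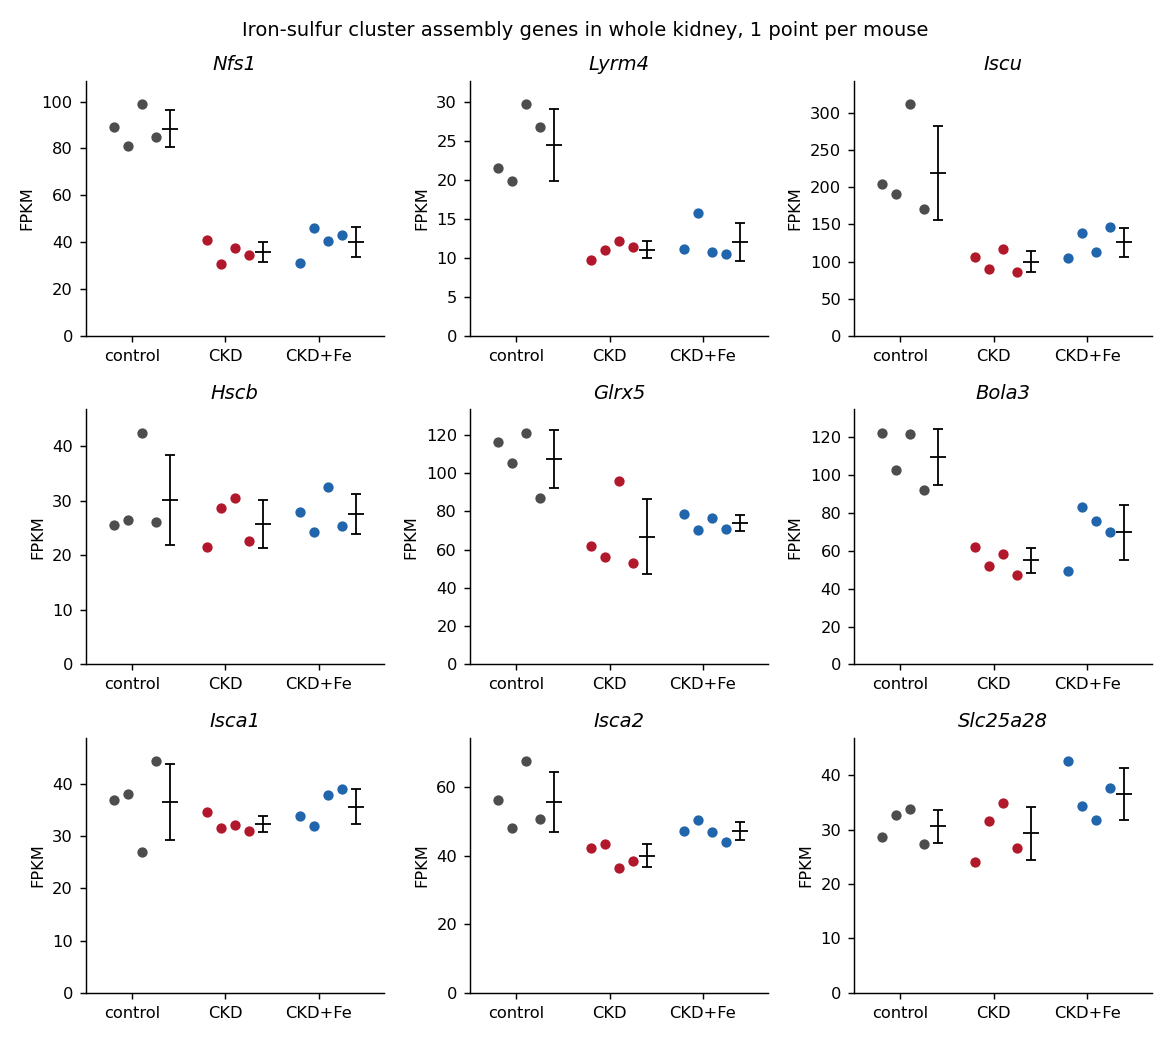
FPKM (vertical axis, from 0) of the 9 assembly genes in control, CKD and CKD+Fe kidneys, with 1 point per mouse in the order of its number and a bar for the mean and 1 SD (n = 4) to the right of each group. The CKD points of Nfs1, Lyrm4, Iscu, Bola3 and Isca2 all lie below the control points, while the 3 groups overlap for Hscb, Isca1 and Slc25a28.

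Nfs1 and Lyrm4, the members that act in sulfur release, were both lower in every CKD mouse than in any control mouse. Nfs1 (ENSMUSG00000027618, chr2:156123639-156144186 on GRCm38, minus strand, 13 exons in its longest transcript) encodes the cysteine desulfurase. Its expression was 89.3, 80.9, 98.9 and 84.8 FPKM in control mice 1 to 4, 40.9, 30.9, 37.5 and 34.7 FPKM in CKD mice 1 to 4, and 31.1, 46.3, 40.5 and 43.0 FPKM in CKD+Fe mice 1 to 4. Every mouse on the adenine diet was below every control mouse by a wide margin, with the highest, CKD+Fe mouse 2 at 46.3, well under the lowest control at 80.9. Control mice averaged 88.5 ± 7.76 FPKM (SD, n = 4), CKD mice 36.0 ± 4.24 and CKD+Fe mice 40.2 ± 6.50. On the scale of log2(FPKM + 1), used for all fold changes here, Nfs1 differed by -1.28 between CKD and control mice (SE 0.14, limma adjusted p = 5.35e-06), or 0.412 of the control level. Nfs1 stood above 91.7% of the tested genes in control and above 79.0% in CKD mice. Its annotation overlaps Romo1 on the opposite strand, and 8.75% of its 50-base stretches also occur in the read-through gene Gm28036 on the same strand.

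Lyrm4 (ENSMUSG00000046573, chr13:35978797-36117357, minus strand, 3 exons) encodes the small partner that stabilizes the desulfurase. It measured 21.6, 19.9, 29.8 and 26.8 FPKM in control mice 1 to 4, 9.70, 11.0, 12.3 and 11.5 in CKD mice and 11.2, 15.7, 10.8 and 10.6 in CKD+Fe mice. Again no adenine-fed mouse reached the control range, and CKD+Fe mouse 2 stood above the other adenine-fed mice. The log2 fold change in CKD was -1.06 (SE 0.16, limma adjusted p = 7.03e-05), a fall from 24.5 ± 4.58 to 11.1 ± 1.07 FPKM (SD, n = 4). Lyrm4 was the lowest of the 9 genes in every group, overlapping the range of its neighbour Hscb in control but not in CKD or CKD+Fe mice.

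Iscu (ENSMUSG00000025825, chr5:113772748-113778288, plus strand, 4 exons), the scaffold on which the cluster is put together, was the most abundant member in all 3 groups. Its expression was 203.6, 191.3, 311.4 and 171.0 FPKM in control mice 1 to 4, 105.9, 90.4, 116.6 and 86.6 in CKD mice and 105.4, 138.9, 113.4 and 146.1 in CKD+Fe mice. The control mice were spread by mouse 3, which was far above its group, yet the lowest control mouse was above every mouse on adenine. The mean fell from 219.3 ± 62.8 to 99.87 ± 13.95 FPKM (SD, n = 4), with a log2 fold change of -1.10 (SE 0.19, limma adjusted p = 0.000175). Without the 3 mice that stood apart it was -0.99. In control and CKD+Fe kidneys Iscu did not overlap the next gene in the order, and in CKD kidneys its range overlapped that of Glrx5. A share of 11.8% of its 50-base stretches occurs in other annotated genes.

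Hscb (ENSMUSG00000043510, chr5:110829070-110839777, minus strand, 6 exons), the co-chaperone that releases the cluster from the scaffold, was not called. It measured 25.5, 26.5, 42.5 and 26.04 FPKM in control mice 1 to 4, 21.5, 28.6, 30.4 and 22.6 in CKD mice and 27.9, 24.2, 32.5 and 25.4 in CKD+Fe mice. The groups overlapped, and control mouse 3 alone stood high. The log2 fold change in CKD was -0.20 with a 95% interval from -0.58 to 0.18 (limma adjusted p = 0.333), which leaves room for a fall as well as a small rise. Without control mouse 3 it was -0.03 (limma adjusted p = 0.875), whereas after rescaling it was -0.76 and was called lower.

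Of the carriers and late-acting factors, Glrx5 and Bola3 fell most. Glrx5 (ENSMUSG00000021102, chr12:105032689-105040910, plus strand, 2 exons), the glutaredoxin that passes the cluster on, measured 116.5, 105.1, 121.2 and 87.1 FPKM in control mice 1 to 4, 62.0, 56.2, 96.0 and 53.1 in CKD mice and 78.7, 70.4, 76.8 and 70.7 in CKD+Fe mice. CKD mouse 3 was above control mouse 4, so the groups overlapped by this 1 mouse, while the CKD+Fe mice were close together and all below the control mice. The log2 fold change in CKD was -0.71 (SE 0.17, limma adjusted p = 0.00271), and it was -0.83 without the 3 mice that stood apart.

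Bola3 (ENSMUSG00000045160, chr6:83349147-83360136, plus strand, 4 exons), which helps to deliver clusters to lipoate synthase and respiratory complexes, measured 122.5, 102.6, 121.6 and 92.4 FPKM in control mice 1 to 4, 62.3, 52.1, 58.5 and 47.1 in CKD mice and 49.7, 83.4, 76.0 and 70.1 in CKD+Fe mice. The CKD mice were all below the control mice, and 3 of the 4 CKD+Fe mice were above every CKD mouse. The mean fell from 109.8 ± 14.8 to 55.0 ± 6.76 FPKM (SD, n = 4), with a log2 fold change of -0.98 (SE 0.17, limma adjusted p = 0.000172).

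Isca1 and Isca2 encode A-type assembly proteins that act as partners. Isca2 (ENSMUSG00000021241, chr12:84773270-84775089, plus strand, 4 exons) measured 56.4, 48.1, 67.7 and 50.9 FPKM in control mice 1 to 4, 42.2, 43.4, 36.4 and 38.4 in CKD mice and 47.4, 50.6, 47.1 and 44.0 in CKD+Fe mice. It was lower in each CKD mouse than in any control mouse, with a log2 fold change of -0.46 (SE 0.12, limma adjusted p = 0.00526), the smallest fall among the 6 genes called. Isca1 (ENSMUSG00000044792, chr13:59755409-59769810, minus strand, 4 exons) measured 37.0, 38.0, 26.9 and 44.4 FPKM in control mice 1 to 4, 34.5, 31.6, 32.1 and 31.0 in CKD mice and 33.9, 31.9, 37.9 and 39.0 in CKD+Fe mice. Control mouse 3 was the lowest of all 12 mice for Isca1 although it was the highest for Isca2, Iscu, Nfs1, Lyrm4, Hscb and Glrx5. The log2 fold change of Isca1 in CKD was -0.15 with a 95% interval from -0.46 to 0.15 (limma adjusted p = 0.356), whereas it was -0.29 without control mouse 3, which passed the test, and -0.05 without control mouse 4. Of its 50-base stretches 65.3% also occur in the read-through gene Gm49354 or in AK157302, so its level depends on how reads were divided between them.

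Slc25a28 (ENSMUSG00000040414, chr19:43663822-43674881, minus strand, 4 exons), the mitochondrial iron importer mitoferrin 2, had the smallest change of the 9 genes between control and CKD mice. It measured 28.7, 32.6, 33.8 and 27.3 FPKM in control mice 1 to 4, 24.0, 31.7, 34.9 and 26.6 in CKD mice and 42.6, 34.3, 31.7 and 37.6 in CKD+Fe mice. Control and CKD mice covered nearly the same range, and the highest value of all was that of CKD+Fe mouse 1. The log2 fold change in CKD was -0.07 with a 95% interval from -0.38 to 0.24 (limma adjusted p = 0.670), and after rescaling it was -0.63 and was called lower.

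Iron dextran was given to ask whether iron treatment alters the diseased kidney. In CKD+Fe against CKD mice all 9 members had positive log2 fold changes, from 0.10 for Hscb and Lyrm4 to 0.33 for Iscu, with a median of 0.19 as compared with -0.000503 over all genes, and 0 of 9 were called (limma, adjusted p from 0.824 to 0.993). At an unadjusted p below 0.05 there was 1 member, Slc25a28, at a log2 fold change of 0.32 with a 95% interval from 0.01 to 0.62. Few genes passed in this comparison, 0.00761% of all tested genes higher and 0% lower on either scale, and 790 of 13148 genes had an unadjusted p below 0.05. The 9 values are not independent of each other, since they come from the same 8 mice. For Iscu the interval ran from -0.07 to 0.73, for Bola3 from -0.04 to 0.68, for Isca2 from -0.03 to 0.50 and for Nfs1 from -0.15 to 0.45. Isca2 alone among the members had every CKD+Fe mouse above every CKD mouse, by a narrow gap between 44.0 and 43.4 FPKM, as did 1.35% of all genes. Leaving out the 3 mice that stood apart gave values from 0.16 to 0.51 and again 0 of 9 called, with 5 at an unadjusted p below 0.05, where 0.388% of all genes were called higher and 0.251% lower.

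Iron-treated CKD kidneys, set beside control kidneys, still had less of most assembly transcripts. In CKD+Fe against control mice 5 of 9 members were called lower and 0 higher (limma), where 11.0% of all genes were lower and 54.4% higher. These were Nfs1 at a log2 fold change of -1.13, Lyrm4 at -0.97, Iscu at -0.77, Bola3 at -0.66 and Glrx5 at -0.52, and for the same 5 genes all CKD+Fe mice were below all control mice, as were 9.85% of all genes. Isca2 had a value of -0.22 (limma adjusted p = 0.128), Hscb of -0.10, Isca1 of -0.02 and Slc25a28 of 0.24, none of which passed. After rescaling 8 of 9 were lower, the exception being Slc25a28 at -0.31, where 27.5% of all genes were lower and 27.7% higher. Without the 3 mice that stood apart 5 were lower and 0 higher, where 12.7% of all genes were lower and 57.8% higher. This comparison shares its control mice with the first and its CKD+Fe mice with the second.

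**Figure D2:**
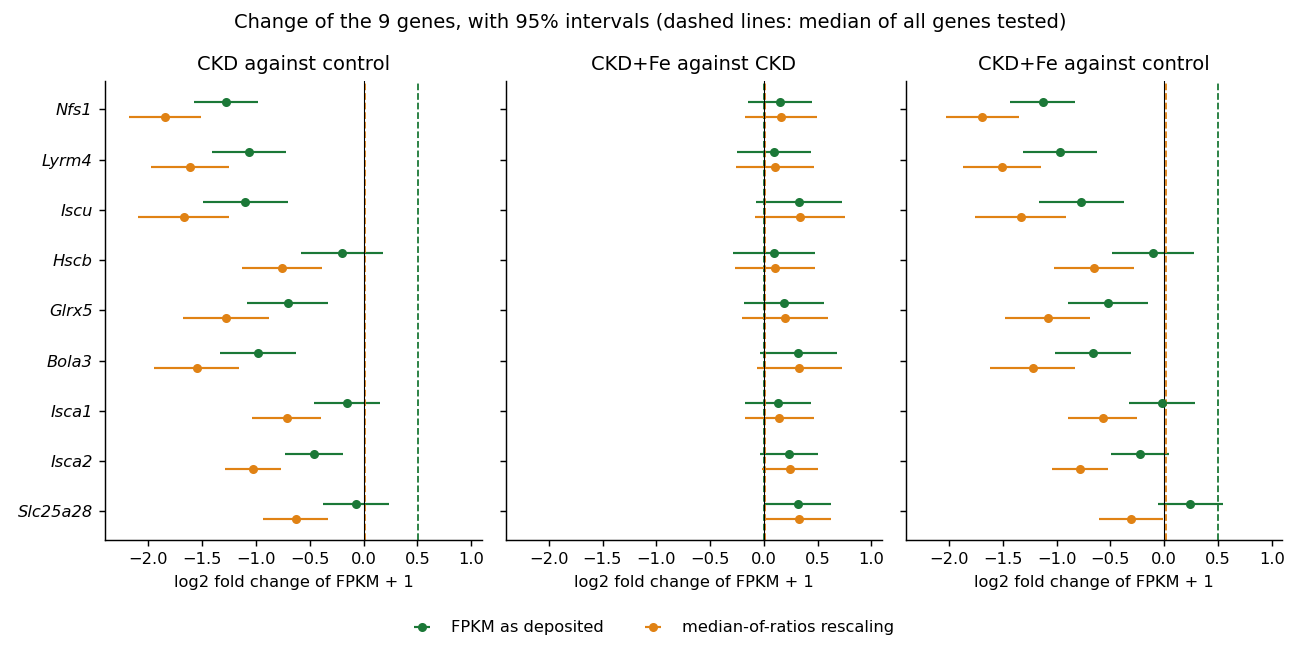
Log2 fold change of FPKM + 1 (horizontal axis) of the 9 assembly genes in 3 comparisons, with 95% intervals from limma (n = 4 mice per group), on the deposited scale (green) and after median-of-ratios rescaling (orange). Dashed lines give the median of all 13148 genes on each scale, at 0.50 and 0.01 for CKD against control, and every member lies to the left of both in that panel.

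Ratios within a mouse do not depend on how its library was scaled. The ratio of scaffold to desulfurase, Iscu to Nfs1, was 2.28, 2.37, 3.15 and 2.02 in control mice 1 to 4, 2.59, 2.93, 3.11 and 2.495 in CKD mice and 3.39, 3.00, 2.80 and 3.40 in CKD+Fe mice. Only control mouse 3 reached the range of the other groups. The difference was 0.38 (log2) in CKD+Fe against control mice (exact two-sided permutation test, p = 0.0857, adjusted over 9 tests 0.321) and 0.20 in CKD against control mice (exact p = 0.229, adjusted 0.386), where the smallest p that 4 mice against 4 allow is 0.0286. The latter value was 0.11 without control mouse 4 and 0.32 without control mouse 3. The ratio of Isca1 to Isca2 averaged, as geometric means, 0.651 for control, 0.808 for CKD and 0.753 for CKD+Fe mice, and the lowest of all was control mouse 3 at 0.398. Its difference in CKD against control was 0.31 (exact permutation p = 0.257, adjusted 0.386) but 0.07 without control mouse 3, and in CKD+Fe against control 0.21 (exact permutation p = 0.571, adjusted 0.643). For CKD+Fe against CKD the Iscu to Nfs1 ratio differed by 0.18 (exact permutation p = 0.143, adjusted 0.321) and the Isca1 to Isca2 ratio by -0.10 (exact permutation p = 0.4, adjusted 0.514), or by -0.01 without CKD+Fe mouse 2 and -0.18 without CKD+Fe mouse 4.

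Mitoferrin 2 was compared with mitoferrin 1, encoded by Slc25a37 and best known as the iron importer of erythroid mitochondria. Slc25a37 measured 8.92, 9.32, 6.34 and 9.19 FPKM in control mice 1 to 4, 12.4, 15.95, 7.40 and 12.4 in CKD mice and 13.01, 13.3, 15.6 and 14.6 in CKD+Fe mice. It was higher in each CKD+Fe mouse than in any control mouse, with a log2 fold change of 0.69 (limma adjusted p = 0.00663), and in CKD against control it was 0.43 (limma adjusted p = 0.0598). Without CKD mouse 3 the latter was 0.63 (limma adjusted p = 0.00241) and without the 3 mice that stood apart 0.51 (limma adjusted p = 0.00277), both called higher. The CKD+Fe and CKD values depended on the scale as well, since after rescaling they were 0.17 and -0.09 and after quantile normalization 0.12 and -0.14, with neither called on either scale. The ratio of Slc25a28 to Slc25a37 was 3.22, 3.50, 5.33 and 2.98 in control mice, 1.94, 1.99, 4.71 and 2.14 in CKD mice and 3.27, 2.58, 2.04 and 2.58 in CKD+Fe mice. It was lower in 3 of 4 CKD mice than in any control mouse, and CKD mouse 3 was within the control range. The difference in CKD was -0.55 on the log2 scale (exact permutation p = 0.143, adjusted 0.321), in CKD+Fe against control -0.50 (exact permutation p = 0.0857, adjusted 0.321) and in CKD+Fe against CKD 0.05 (exact permutation p = 0.943, adjusted 0.943). The first was -0.85 without CKD mouse 3 and -0.37 without control mouse 3, and the second -0.32 without control mouse 3. The 9 erythroid markers summed to between 28.8 and 121 FPKM for control, 16.7 and 119 for CKD and 24.0 and 53.1 for CKD+Fe mice, and their part in the Slc25a37 values was not tested.

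**Figure D3:**
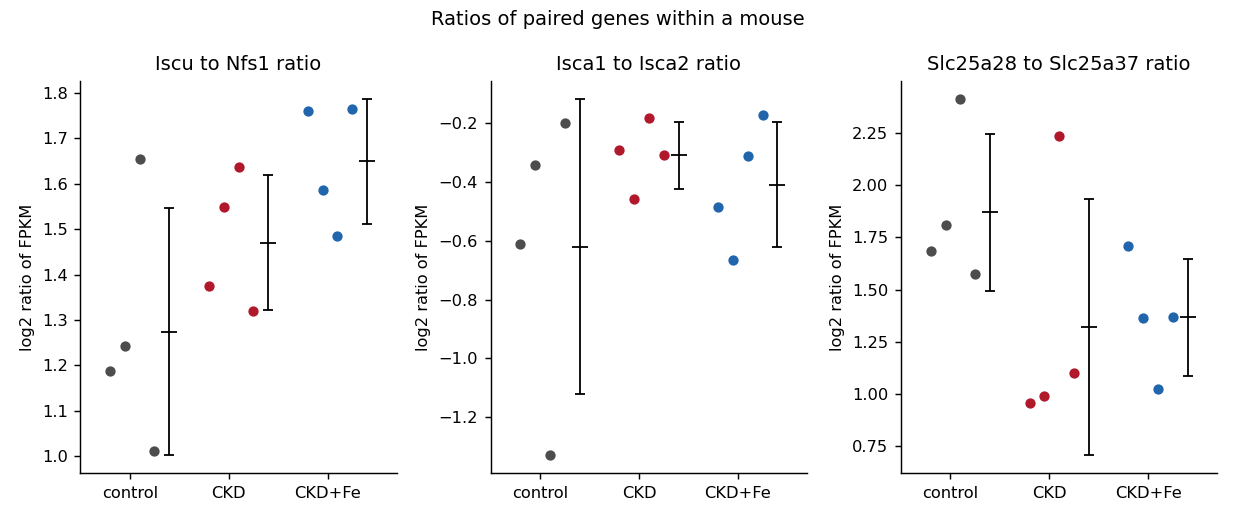
Log2 ratio of FPKM (vertical axis) of Iscu to Nfs1, Isca1 to Isca2 and Slc25a28 to Slc25a37 in each mouse of the 3 groups, with the mean and 1 SD (n = 4) as a bar to the right of each group. The groups overlap in all 3 panels, and control mouse 3 and CKD mouse 3 are far from the other mice of their groups in the Slc25a28 panel.

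The other genes of mitochondrial assembly were lower in part. Of 15 genes outside the 9 members, 6 were called lower in CKD against control and 0 higher, as compared with 13.3% and 54.6% of all genes, with a median log2 fold change of -0.38. Without CKD mouse 3 these counts were 9 lower and 2 higher. With 1 mouse left out at a time, 1550 to 1876 of all 13148 genes were lower and 6574 to 7348 higher. Without the 3 mice that stood apart the counts were 10 lower and 2 higher, where 15.7% of all genes were lower and 59.4% higher. The 2 called higher there were Slc25a37 and Grpel2, a nucleotide exchange factor of HSPA9, at 0.31 (limma adjusted p = 0.0212). Grpel2 was named after its value was seen. The largest falls were those of Fdx1, a ferredoxin that supplies electrons in the matrix, at -1.40 (limma adjusted p = 1.43e-06), and of Ndufab1, the mitochondrial acyl carrier protein that binds LYR proteins such as LYRM4, at -0.98 (limma adjusted p = 0.000277). Hspa9, the chaperone partner of HSCB, fell from 244.1 ± 44.0 to 148.9 ± 16.9 FPKM (SD, n = 4), at -0.70 (limma adjusted p = 0.00144), a call that was lost after quantile normalization at -0.33. Thus on the deposited scale Hspa9 passed the test and Hscb did not, and the difference between them was not tested. After rescaling both were called lower, Hspa9 at -1.27 and Hscb at -0.76. After quantile normalization Hscb was called lower at -0.47 (limma adjusted p = 0.0258) and Hspa9 was not called. After rescaling 12 of the 15 were lower and 0 higher, where 29.3% of all genes were lower and 28.8% higher. After quantile normalization 11 were lower and 0 higher, where 25.6% of all genes were lower and 23.3% higher.

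Genes of the cytosolic assembly machinery were less uniform. Of 13 genes 3 were called lower and 3 higher in CKD against control, where 13.3% of all genes were lower and 54.6% higher, with a median of 0.10 as compared with 0.50. The counts were the same without the 3 mice that stood apart, where 15.7% of all genes were lower and 59.4% higher. The largest falls were those of Ciao1 at -0.47 and Fam96a at -0.37 (limma adjusted p = 0.00444 and 0.0123), both parts of the targeting complex. The largest rises were those of Ndor1, which passes electrons to the cytosolic machinery, at 1.12 and Mms19, another part of the targeting complex, at 0.95 (limma adjusted p = 0.000169 and 0.000283). After rescaling 7 of 13 were lower and 2 higher, where 29.3% of all genes were lower and 28.8% higher. The 2 were Ndor1 and Mms19, and the median of the 13 was -0.46 as compared with 0.01 over all genes. In CKD+Fe against CKD 0 of these 13 and 0 of the 15 mitochondrial genes were called (limma).

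Genes of the proteins that carry clusters were counted by compartment. Of 15 mitochondrial iron-sulfur protein genes 13 were lower in CKD and 0 higher, as compared with 13.3% and 54.6% of all genes, with a median of -0.90, and the 2 largest falls were Cisd3 at -1.39 and Cisd1 at -1.32, which encode mitoNEET family proteins. Of 20 tested genes for cytosolic, nuclear and endoplasmic reticulum iron-sulfur proteins, from a list of 23, 1 was lower and 11 were higher, where 13.3% and 54.6% of all genes were, with a median of 0.43 as compared with 0.50. Both pairs of counts were the same without the 3 mice that stood apart, where 15.7% of all genes were lower and 59.4% higher. The fall was in Aco1, the cytosolic aconitase that without its cluster becomes iron regulatory protein 1, at -0.55 (limma adjusted p = 0.00587), a call that was lost after quantile normalization at -0.42 (limma adjusted p = 0.061). The largest rises were in Xdh, xanthine dehydrogenase, at 1.81 and Pold1, the catalytic subunit of DNA polymerase delta, at 1.55. After rescaling all 15 mitochondrial genes were lower, and of the 20 others 6 were lower and 4 higher, as compared with 29.3% and 28.8% of all genes. In CKD+Fe against CKD 0 genes of either list were called (limma).

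**Figure D4:**
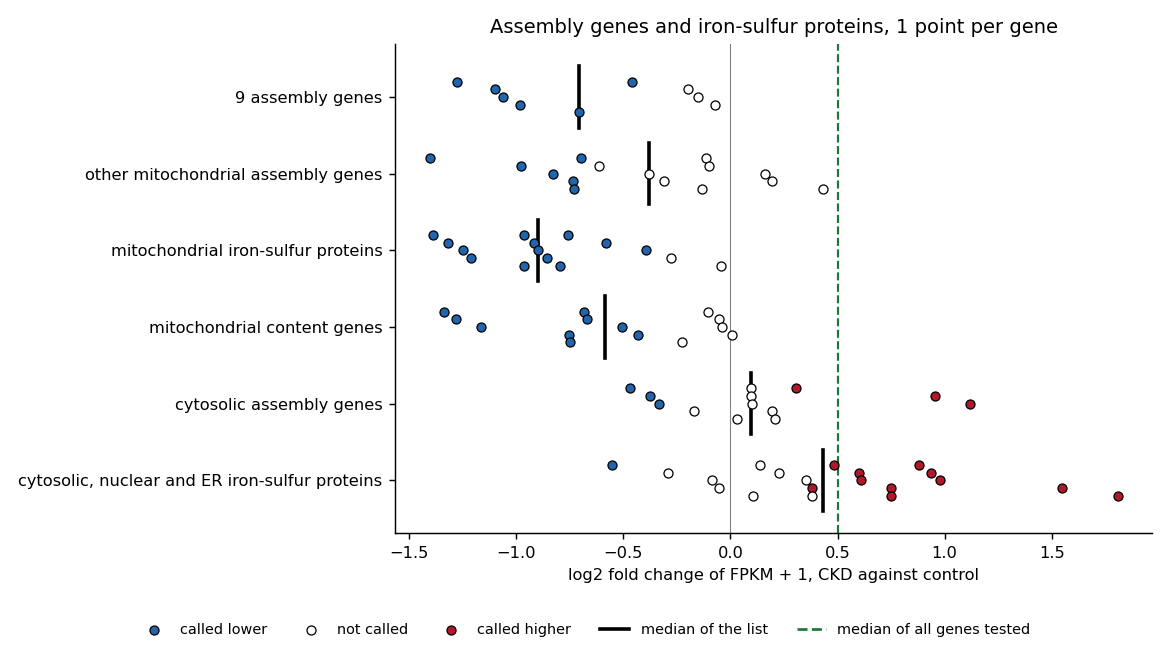
Log2 fold change (horizontal axis, from log2(FPKM + 1)) between CKD and control mice, with 1 point per gene in 6 lists, filled blue where called lower, red where called higher and white where not called (limma, n = 4 mice per group). The medians of the mitochondrial lists lie at or left of -0.38 and those of the cytosolic lists at 0.10 and 0.43, and the dashed line marks the median of all genes at 0.50.

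Genes of general mitochondrial content were also lower in part. Of 14 such genes, among them citrate synthase, porins, import receptors and ATP synthase subunits, 9 were lower in CKD against control and 0 higher, as compared with 13.3% and 54.6% of all genes, with a median of -0.59. The counts were the same without the 3 mice that stood apart, where 15.7% of all genes were lower and 59.4% higher. After rescaling all 14 were lower, where 29.3% of all genes were lower and 28.8% higher. After quantile normalization 6 were lower and 1 higher, where 25.6% of all genes were lower and 23.3% higher. The 1 called higher was the porin Vdac2 at 0.33, named after its value was seen. The mean log2(FPKM + 1) of the 9 members was 5.93 ± 0.144 (SD, n = 4) for control, 5.26 ± 0.118 for CKD and 5.47 ± 0.0690 for CKD+Fe mice. That of the 14 content genes was 7.36 ± 0.0390, 6.79 ± 0.142 and 6.91 ± 0.0690. The difference of these means was -1.43 ± 0.144, -1.53 ± 0.102 and -1.44 ± 0.0390, with control mice from -1.51 to -1.22, CKD mice from -1.64 to -1.40 and CKD+Fe mice from -1.50 to -1.41. Set against mitochondrial content genes, the groups thus overlapped, although each mean separated the control mice from the adenine-fed mice.

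**Figure D5:**
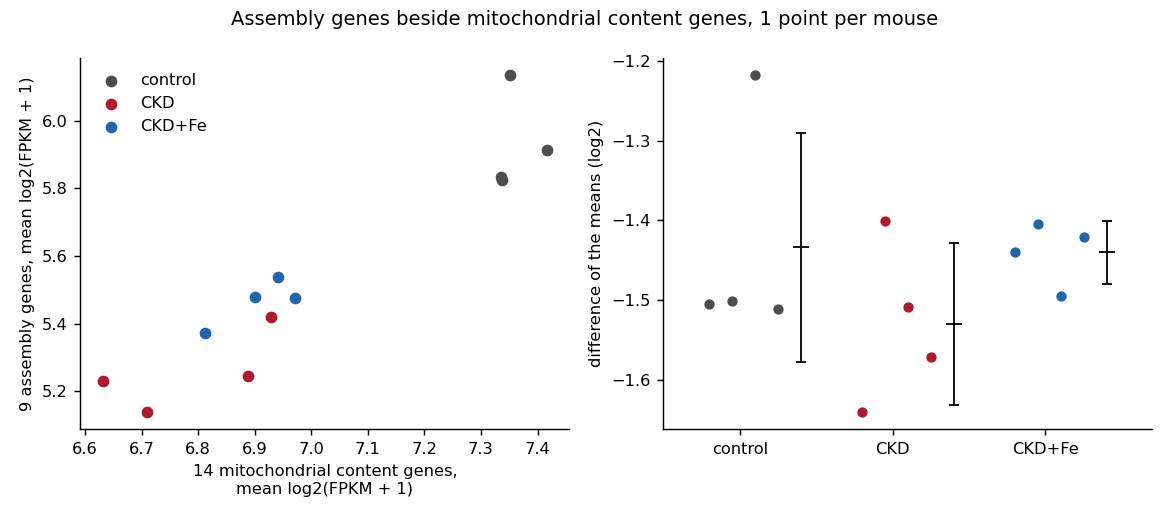
Left, mean log2(FPKM + 1) of the 9 assembly genes (vertical axis) against that of 14 mitochondrial content genes (horizontal axis), 1 point per mouse. Right, the difference of the 2 means (log2) by group with the mean and 1 SD (n = 4). Control mice lie apart at the upper right of the left panel, and the groups overlap in the right panel.

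Marker transcripts of several cell types differed in the same comparison. Of 14 proximal tubule markers 12 were lower in CKD and 0 higher, where 13.3% of all tested genes were lower and 54.6% higher. For all 12 the CKD mice were below the control mice, as they were for 10.5% of all tested genes. Of 12 macrophage markers all 12 were higher, as were 54.6% of all tested genes. They summed to between 128 and 265 FPKM for control, 1859 and 3876 for CKD and 1730 and 3846 for CKD+Fe mice. All 9 fibroblast and matrix markers were higher as well, summing to 96.1 to 133 FPKM in control and 579 to 1041 in CKD mice. After rescaling Acta2, named after its value was seen, was not called at 0.58 (limma adjusted p = 0.0588). Of the 8 papilla and urothelium markers 7 were tested and 0 were called (limma), with sums from 1.58 to 142 FPKM within control mice alone. These 4 pairs of counts were the same without the 3 mice that stood apart, where 15.7% of all genes were lower and 59.4% higher. No marker of the proximal tubule was at 0 in all mice of a group. The part of these marker differences in the fall of the assembly genes was not tested.

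For 8 of the members the tested gene with the most similar course over the 12 mice was found as the smallest root mean square difference of log2(FPKM + 1), each gene centred on its own mean. For Glrx5 this was Cox5a, a subunit of cytochrome c oxidase, at 0.0990, and for Bola3 it was Atp5f1, a subunit of ATP synthase, at 0.104. For Nfs1 it was Nit2, an omega-amidase, at 0.0860, and for Lyrm4 it was Tmbim4 at 0.16. The course of Isca2 was closest to that of Atp6v1g1, a subunit of the vacuolar proton pump, at 0.0930, and that of Slc25a28 to Rab24 at 0.09. Isca1 was closest to 1810026J23Rik at 0.0780 and Hscb to Bloc1s4 at 0.112. Among the members themselves Iscu and Bola3 were closest, at 0.196, and Nfs1 and Lyrm4 came next at 0.221, while the members' own spread about their means ran from 0.178 for Isca1 to 0.593 for Nfs1. All these points share the 12 libraries and their scaling.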

How the data were processed

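Polyadenylated RNA of 12 whole kidneys, 4 per group and 1 library per mouse, was sequenced by the authors from stranded libraries with single-end reads. The authors deposited 1 FPKM value per gene and mouse for 22053 rows. The submitters' processing notes name bcl2fastq 2.19, STAR 2.5.2, Cufflinks 2.1.1 and build GRCm38. FPKM are not counts, so a linear model on a log scale replaced the count test of the study. The depth in reads, and with it the counting error, is unknown. Of the deposited values 30 were marked as failed estimates and were treated as missing, none of them in a member.

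A pseudocount of 1 was added to FPKM before the log2. The model was fitted in R 4.3.3 by limma 3.58.1, with moderated variances that follow a trend, to all 12 mice together. It covered the 13148 genes that reached 1 FPKM in 4 or more mice. Fold changes on this scale understate the change of genes with low values. Two-sided p-values were corrected after Benjamini and Hochberg across the 13148 genes, and adjusted values below 0.05 were called. Ratios were compared by an exact two-sided permutation test over 70 arrangements (scipy 1.17.1). The fit and the permutation test were tested on simulated data. The limma p-values set each group difference against the variance between mice within groups, moderated across genes. The permutation p-values count the arrangements of mice with a difference at least as large. The members and gene lists were chosen with earlier results of these data known. Beside the 9 members, the text names from each list of pathway genes the 2 largest rises and 2 largest falls among genes called in CKD against control, any gene called in CKD+Fe against CKD, and Slc25a37 and Hspa9. Some genes that this rule would name are not reported here. Abcb10, Cox4i1 and Ahsp of the lists were not matched to the table. Exon counts and shared 50-base stretches are from GENCODE M21, which has the same start and end for 77.1% of 21810 matched rows. No protein sequences were used here. Alternatives were another pseudocount (0.1), no filter or a mean of at least 5 FPKM, quantile normalization, median-of-ratios rescaling, array quality weights, a fit to the compared groups only, variances without a trend and each mouse left out. Leaving out the 3 mice that stood apart was chosen after seeing the data.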

Additional observations from a re-analysis of the deposited data

Results flagged for a closer look

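In 3 of 36 sets of 4 mice, 1 mouse lay far from the other 3 by Dixon's criterion, which by chance marks about 1 in 20 sets. Lyrm4 was 15.7 FPKM in CKD+Fe mouse 2, where the other CKD+Fe mice ranged from 10.6 to 11.2 FPKM. Hscb was 42.5 FPKM in control mouse 3 and 25.5 to 26.5 FPKM in the other control mice. The ratio of Slc25a28 to Slc25a37 was 4.71 in CKD mouse 3 and 1.94 to 2.14 in the other CKD mice. Control mouse 3 and CKD mouse 3 each had more genes at least 2-fold from the rest than any other mouse of their group, with 595 and 805 genes. The cause was not tested.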

How the results depend on the processing

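The calls of Nfs1, Lyrm4, Iscu, Glrx5, Bola3 and Isca2 in CKD against control, and of the first 5 of these in CKD+Fe against control, kept their direction and passed the test under all 17 alternatives run for each. The iron comparison, CKD+Fe against CKD, had 0 members called under any of them. Median-of-ratios rescaling raised the members called lower in CKD+Fe against control from 5 to 8, by its shift of all values relative to control, and gave -0.31 for Slc25a28 there and -0.092 for Slc25a37 in CKD against control, which quantile normalization put at -0.14. Over all genes, rescaling and quantile normalization gave 3781 and 3060 higher and 3856 and 3363 lower in CKD against control, and 3636 and 2605 higher and 3618 and 2967 lower in CKD+Fe against control, where a minimum mean of 5 FPKM, with fewer genes tested, gave 4749 higher.

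In CKD+Fe against CKD the 1 gene called higher became 0 with a pseudocount of 0.1, with no filter and with only the 2 groups compared, 91 with array quality weights (69 lower) and 51 without the 3 mice that stood apart (33 lower). Without a variance trend 1 gene was lower. With 1 mouse left out there were 0 to 9 genes higher and 0 to 4 lower, the most without CKD+Fe mouse 1.

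For the members, Slc25a37, Hspa9, the largest changes of each list of pathway genes and the ratios, changes of sign were limited to values not called on the deposited scale. Some other list genes that were called did change sign. In CKD against control Elp3 and Oraov1, named after their values were seen, were called higher at 0.38 and 0.31. After rescaling they were -0.17 and -0.23 and were not called. Array quality weights gave 0.092 for Hscb in CKD+Fe against control, and without the 3 mice that stood apart Hscb was 0.060. With 1 mouse left out, Lyrm4 in CKD+Fe against CKD ran from -0.027 (without CKD+Fe mouse 2) to 0.15, Hscb in CKD+Fe against control from -0.18 to 0.069 (without control mouse 3) and Isca1 there from -0.15 to 0.081. Slc25a28 in CKD against control ran from -0.16 to 0.017. The log2 ratio of Slc25a28 to Slc25a37 in CKD+Fe against CKD ran from -0.075 to 0.35 (without CKD mouse 3), and that of Isca1 to Isca2 in CKD+Fe against control from -0.026 (without control mouse 3) to 0.35. Where no construction of the alternative shows it, the cause was not tested.

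No paired analysis was possible because the labels give a code for each mouse and name no pairs between groups. The mouse numbers used here follow the order of the samples within each group, so equal numbers do not mark a pair. The depth in reads is unknown, and with 4 mice per group the intervals in CKD+Fe against CKD are wide for every member.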
